A study of Mus musculus with 6 samples.

Results

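A set of 10 neuronal genes was followed in the RNA-seq of SL4 cells, a mouse CRC line that carries luciferase. They were chosen by the measured rise of Uchl1 and Nefl in the cells that overexpress SEMA6A, to which 8 genes of the neuronal cytoskeleton and growth cone were added by name. The set makes up 10 of the 53700 genes in the deposited table, namely Uchl1, Nefl, Nefm, Nefh, Ina, Prph, Tubb3, Stmn2, Map2 and Gap43, and each symbol named a single mouse Ensembl gene. The question was whether the rise of Uchl1 and Nefl belonged to a wider neuronal pattern. The 3 pLV-Control libraries came from SL4 cells without SEMA6A overexpression, and the 3 pLV-SEMA6A libraries from SL4 cells transduced with a SEMA6A lentivirus. The sources describe a single pLV-SEMA6A line and do not state the promoter of the transgene. What the pLV-Control cells carry is not described beyond their name. An effect of SEMA6A therefore cannot be told apart from a difference between 2 cell lines, and where libraries are not stated to come from separate cultures, p-values measure only the spread between these libraries.

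Neurofilaments are the intermediate filaments of axons, in which the light chain Nefl co-assembles with the medium and heavy chains Nefm and Nefh, with α-internexin (Ina) or with peripherin (Prph). Neuronal microtubules contain the β-tubulin Tubb3, are stabilized in dendrites by Map2 and are turned over at growth cones under the influence of Stmn2, while Gap43 lies under the growth cone membrane. Uchl1 is a ubiquitin C-terminal hydrolase that is abundant in neurons and neuroendocrine cells and is also expressed in many tumor cell lines. Many neuronal genes are kept silent in other cells by the repressor REST, which binds a DNA element called RE1.

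The deposited values were TPM, an abundance unit whose values correct for transcript length and put each library on one common total, so levels of different genes can be set side by side but the depth behind them is unknown. The listed TPM summed to between 977400 and 986444 per library. Sema6a, the overexpressed gene, reached 98.7 to 118 TPM in the pLV-SEMA6A libraries and was listed at 0 in the 3 pLV-Control libraries. Log2 fold changes were taken on log2(TPM + 1), which understates the change of low genes. Genes that averaged 1 TPM or more were tested with limma, and a gene was called when its adjusted p was below 0.05 and its log2 fold change exceeded 0.5 in size. By this rule 5.12% of the 12510 tested genes were called higher and 10.8% lower in pLV-SEMA6A, or 15.9% in all. The split of 640 higher and 1347 lower became 1002 and 961 after centring each library on its median.

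The markers of the labelled cell type were checked first. Of 14 colon epithelial markers, 13 were below 0.5 TPM in every library, Epcam was listed at 0 throughout, and Krt18 and Cdh1 did not exceed 0.05 and 0.03 TPM. The summed level of the 14 markers was 2.14 to 3.21 TPM in pLV-Control and 0.64 to 1.64 TPM in pLV-SEMA6A. Lgals4 gave most of the pLV-Control sum, with means of 2.15 ± 0.32 and 0.36 ± 0.41 TPM (SD, n = 3 each). It was the only tested colon marker and was called lower (log2 fold change −1.24, limma, adjusted p = 0.0076). It reached the minimum for testing only through its pLV-Control values. Vim, which encodes the mesenchymal filament protein vimentin, averaged 896 ± 10.5 TPM in the control cells and 1407 ± 19.4 TPM with SEMA6A (SD, n = 3 each). The 10 fibroblast and mesenchymal markers, Vim included, summed to 1046 to 1080 TPM in pLV-Control and 1660 to 1706 TPM in pLV-SEMA6A, with 4 of 7 tested genes called higher and 2, Pdgfra and Pdgfrb, called lower. Pdgfra, like Lgals4, passed the 1 TPM minimum only by its level in the control cells. Its call was lost without pLV-Control replicate 2 or pLV-SEMA6A replicate 2 or 3. That call was also lost in the fit with a replicate block (limma, adjusted p = 0.0681). The call of Pdgfrb was lost after centring on the median, and that of Col3a1, among the 4 higher, without pLV-Control replicate 3. The sum of the fibroblast and mesenchymal markers and the level of Lgals4 thus differed between the groups that are compared here. The part of these markers in the neuronal genes was not tested. The summed levels of leukocyte and endothelial markers did not exceed 0.64 and 0.22 TPM in any library.

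The RefSeq promoters of Uchl1 and Tubb3 are shown because the libraries of the groups lay apart for both genes, with the GC box GGGCGG in capitals. Each run is read 5′ to 3′ on the plus strand of GRCm38.p6 and ends before the first transcript that GENCODE M21 annotates. The Uchl1 stretch lies at chr5:66675871-66676090 and the Tubb3 stretch at chr8:123411303-123411423.
Uchl1: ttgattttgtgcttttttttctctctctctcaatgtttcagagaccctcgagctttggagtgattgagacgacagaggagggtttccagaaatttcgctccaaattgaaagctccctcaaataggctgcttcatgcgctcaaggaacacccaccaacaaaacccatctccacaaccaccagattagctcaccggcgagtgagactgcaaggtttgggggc
Tubb3: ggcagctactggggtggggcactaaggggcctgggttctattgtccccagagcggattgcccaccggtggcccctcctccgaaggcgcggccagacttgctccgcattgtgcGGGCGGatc

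Uchl1 was the only abundant member, while 6 of the 10 genes stayed below 1 TPM in every library. In pLV-Control, Uchl1 was listed at 81.2, 80.3 and 78.7 TPM. In pLV-SEMA6A it was listed at 194, 188 and 187 TPM. The groups did not overlap, and the means of 80.1 ± 1.27 and 189.7 ± 3.66 TPM (SD, n = 3 each) stood in a ratio of 2.37. The log2 fold change was 1.23 (standard error 0.03), and 111 of the tested genes had a larger rise. Uchl1 alone made up 95.5% to 97.9% of the summed TPM of the 10 members.
Nefl was low in both groups. It had 0.44, 0.15 and 0.24 TPM in the pLV-Control libraries, against 2.61, 2.49 and 2.20 TPM in the pLV-SEMA6A libraries. Every pLV-SEMA6A library lay above every pLV-Control library, with means of 0.28 ± 0.15 and 2.43 ± 0.21 TPM (SD, n = 3 each) and a ratio of 8.80. The log2 fold change was 1.43 (standard error 0.17), and with a pseudocount of 0.1 it was 2.82. Nefl reached the minimum for testing only through its pLV-SEMA6A values. Since these rises selected the set, they are a description, with no test.

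**Figure D1:**
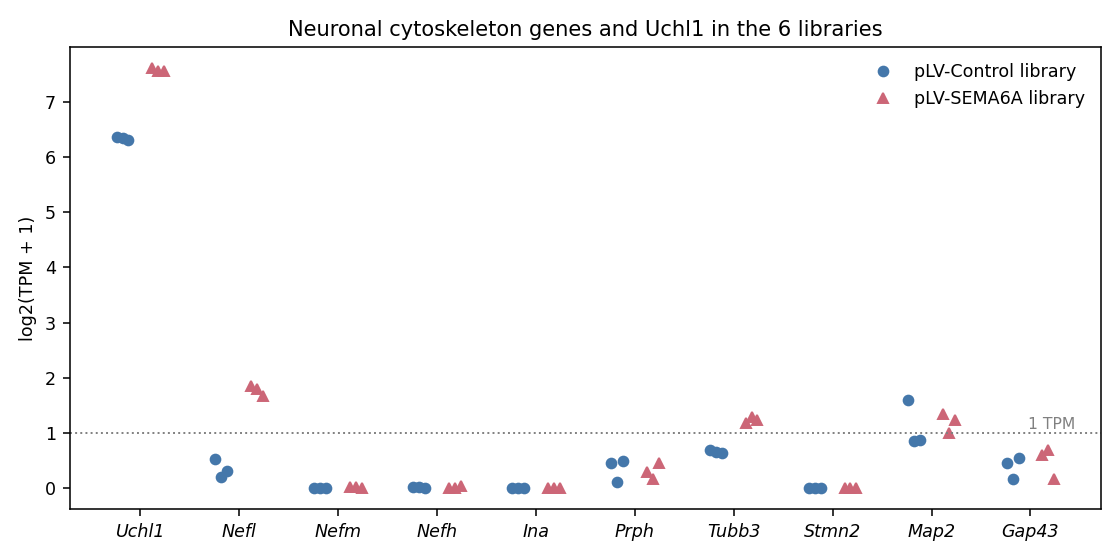
log2(TPM + 1) of the 10 members (vertical axis) in the 3 pLV-Control libraries (circles) and the 3 pLV-SEMA6A libraries (triangles), with a dotted line at 1 TPM. Uchl1 lies far above the other members in every library, and Nefl and Tubb3 are the only others whose groups do not overlap.

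The filament partners of Nefl were at or near 0 in both groups. Nefm, its neighbour on chromosome 14, had 0 in the 3 pLV-Control libraries, against 0.02, 0.02 and 0 TPM with SEMA6A. Nefh, on chromosome 11, had 0.01, 0.02 and 0 TPM in the pLV-Control libraries, against 0, 0 and 0.03 TPM in the pLV-SEMA6A libraries. Ina, on chromosome 19, was listed at 0 in all 6 libraries. None of these 3 filament genes exceeded 0.03 TPM in any library, against 2.20 TPM or more for Nefl in pLV-SEMA6A.
Prph, the filament protein of peripheral neurons, had 0.37, 0.08 and 0.40 TPM in the pLV-Control libraries, against 0.23, 0.12 and 0.37 TPM in those with SEMA6A. The groups overlapped, with averages of 0.28 ± 0.18 and 0.24 ± 0.13 TPM (n = 3 each, SD). Its mean was under the minimum for testing. With that minimum lowered to 0.1 TPM, its log2 fold change was −0.045 (limma, adjusted p = 0.844). The 95% interval ran from −0.40 to 0.31, so a difference within it in either direction was not excluded. The sign of the log2 fold change turned without pLV-Control replicate 1 or 3 or pLV-SEMA6A replicate 2. The 5 neuronal filament genes together summed to 0.25 to 0.82 TPM in pLV-Control and 2.60 to 2.86 TPM in pLV-SEMA6A, and Nefl gave most of the latter.

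Part of the Nefl sequence is also annotated on the other strand. Of its 31-base stretches in GENCODE M21, 32.2% occur in reverse in a Nefm transcript, and 0 occur on the same strand in another gene. The sources do not state that the libraries or the counting kept the strand, so reads of this part could have come from either gene. Nefm itself did not exceed 0.02 TPM. For Uchl1, 14.8% of the stretches occur in reverse in the antisense RNA Uchl1os, which was listed at 0 in every library.

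Of the members that act on microtubules (Tubb3, Map2 and Stmn2), Tubb3 alone separated the groups. Tubb3 had 0.62, 0.58 and 0.55 TPM in the pLV-Control libraries, against 1.28, 1.44 and 1.36 TPM in those with SEMA6A. The groups did not overlap, and the means of 0.58 ± 0.04 and 1.36 ± 0.08 TPM (SD, n = 3 each) stood in a ratio of 2.33. Its mean over the 6 libraries was 0.972 TPM, just under the minimum for testing. With the minimum lowered to 0.1 TPM, Tubb3 was called higher at a log2 fold change of 0.58 (limma, adjusted p = 0.00545, standard error 0.10), where 3.76% of 17532 genes were called higher. At that minimum the call held without each library in turn, with adjusted p-values from limma of 0.0167 to 0.0225. At a minimum of 1 TPM it was also called after TPM were rescaled to protein-coding genes (log2 fold change 0.62, adjusted p = 0.00526 from limma), which lifted it over that minimum. Without 1 pLV-Control library it also reached 1 TPM, and was called without replicate 1 (adjusted p = 0.0422) but not without replicate 2 (0.0534) or replicate 3 (0.0564, all from limma). In these fits at a minimum of 1 TPM, Tubb3 reached the minimum only through its pLV-SEMA6A values. Its calls there therefore add no support of their own. Of its 31-base stretches, 3.21% occur in other genes, mainly Tubb6, another β-tubulin. Tubb6 was itself higher with SEMA6A, at 208.88, 206.5 and 207.92 TPM, against 164.58, 177.13 and 174.68 TPM in the control libraries. Its log2 fold change of 0.27 fell short of 0.5 (limma, adjusted p = 0.00086). Whether reads of Tubb6 added to the rise of Tubb3 was not tested.
Map2 had 2.04, 0.81 and 0.83 TPM in the pLV-Control libraries, against 1.55, 1.01 and 1.37 TPM in those with SEMA6A. The groups overlapped, with pLV-Control replicate 1 above every other library. Map2 was the only one of the 8 added genes that reached the minimum for testing, and it was not called (log2 fold change 0.09, 95% interval −0.51 to 0.70, unadjusted p = 0.731, adjusted p = 0.790 from limma). Its direction turned when pLV-Control replicate 2 or 3 was left out, with log2 fold changes of −0.037 and −0.029. Stmn2, which destabilizes microtubules in growing axons, was listed at 0 in all 6 libraries.

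**Figure D2:**
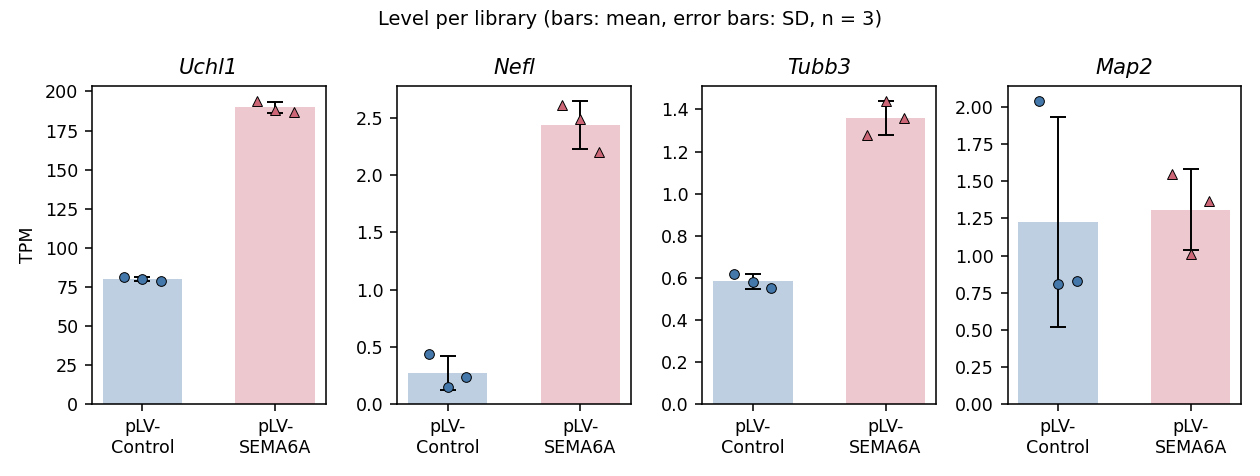
TPM (vertical axis, own scale in each panel) of Uchl1, Nefl, Tubb3 and Map2 in each pLV-Control (circles) and pLV-SEMA6A library (triangles), with bars for the mean and error bars for the SD of 3 libraries. The groups lie apart for Uchl1, Nefl and Tubb3 and overlap for Map2, where 1 pLV-Control library reached 2.04 TPM.

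Gap43, on chromosome 16, did not separate the groups either. It had 0.37, 0.12 and 0.47 TPM in the pLV-Control libraries, against 0.51, 0.62 and 0.12 TPM in those with SEMA6A. The lowest value was the same in both groups. With a minimum of 0.1 TPM the log2 fold change was 0.09 with a 95% interval from −0.35 to 0.54 (limma, adjusted p = 0.734), and it turned below 0 without pLV-Control replicate 2 or pLV-SEMA6A replicate 2.
Of the 8 added genes, 1 was tested by the rule and 0 were called, against 15.9% of all tested genes, and 7 were too low to be tested. With the minimum at 0.1 TPM, 4 of the 8 were tested and 1, Tubb3, was called higher. Counted over all 10 members, the libraries of the groups did not overlap for 3, each higher in pLV-SEMA6A. For Uchl1 and Nefl the rule had fixed this. Among the 17532 genes that averaged 0.1 TPM or more, the groups did not overlap for 46.9%, and for 18.7% with pLV-SEMA6A higher. Nefm, Nefh, Ina and Stmn2 averaged less and are not among those genes, so the count over all 10 members is not a like one. Of the 4 added genes among them, Tubb3 alone did not overlap. Without Uchl1 and Nefl, the remaining members summed to 1.61 to 3.41 TPM in pLV-Control and 3.21 to 3.59 TPM in pLV-SEMA6A, which overlap. Without Tubb3 as well, the sums of 1.77 to 2.31 TPM in pLV-SEMA6A lay within the 1.03 to 2.79 TPM of pLV-Control.

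The order of the levels differed between the groups mainly through Nefl. Since the rise of Nefl helped to select the set, its move up the order is a description only. In pLV-Control, Uchl1 was followed by Map2 at a mean of 1.23 TPM, Tubb3 at 0.58, Gap43 at 0.32, Prph at 0.28 and Nefl at 0.28 TPM. The libraries of Gap43, Prph and Nefl overlapped, so these neighbours did not differ beyond their spread. In pLV-SEMA6A, Nefl came after Uchl1, followed by Tubb3 at 1.36, Map2 at 1.31, Gap43 at 0.42 and Prph at 0.24 TPM. Tubb3 and Map2 overlapped there, as did Gap43 and Prph, while Nefl lay above Tubb3 in every library.

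The genes whose profile lay nearest to that of Uchl1 are given as a description. Over the 6 libraries and 8184 genes that averaged 10 TPM or more, the smallest Euclidean distances between centred log2(TPM + 1) values were 0.101 for Ehd2, 0.128 for Igfbp6 and 0.153 for Tagln. Ehd2 encodes a membrane-shaping ATPase found at caveolae, Igfbp6 a secreted protein that binds insulin-like growth factors, and Tagln an actin-binding protein of smooth muscle. The mean TPM in pLV-Control and pLV-SEMA6A was 18.1 and 43.7 for Ehd2, 125 and 303 for Igfbp6, and 31.4 and 79.9 for Tagln. With 2 groups of 3 libraries, this likeness is largely one of the difference between the groups, which chose Uchl1, and the minimum of 10 TPM leaves out the other 9 members, so it does not bear on whether neuronal genes moved with Uchl1.

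The wider lists of axonal and synaptic genes held calls in both directions. Of 27 further genes of neuronal microtubules, axons and adhesion, 14 were tested, 3 were called higher and 1 lower, and the median log2 fold change was 0.03 beside −0.06 over all tested genes. Ncam1, a neural cell adhesion molecule, rose from a mean of 23.2 ± 0.77 TPM to 36.8 ± 0.76 TPM (n = 3 each, SD), a log2 fold change of 0.64 (limma, adjusted p = 6.8e-05). Map1a and Map1b, which bind microtubules in dendrites and axons, had log2 fold changes of 0.67 and 0.53. The call of Map1a was lost without pLV-Control replicate 1 (limma, adjusted p = 0.0547) and without pLV-SEMA6A replicate 3 (0.0532), and that of Map1b without pLV-Control replicate 2 or pLV-SEMA6A replicate 2, where the log2 fold change was 0.498 and 0.485. Kif3c, a kinesin motor subunit, fell from a mean of 22.8 ± 1.06 TPM to 14.3 ± 0.69 TPM (n = 3 each, SD). After centring each library on its median, 6 genes of the list were called higher and 1 lower. The added calls were Dpysl3, Ank3 and Dclk1, named after their values were seen. Before centring their log2 fold changes were 0.46, 0.49 and 0.46 (limma, adjusted p = 3.7e-05, 0.00087 and 0.053). Dpysl3 averaged 172 and 237 TPM in pLV-Control and pLV-SEMA6A. With no minimum fold change, 5 genes of the list were called higher and 3 lower. Mapt, which encodes the axonal protein tau, did not exceed 0.37 TPM.
Synaptic vesicle genes were mostly low. Of 30, 9 were tested, 1 was called higher and 3 lower, with a median log2 fold change of −0.30. Cplx2, which clamps and promotes vesicle fusion, rose from a mean of 4.22 ± 0.33 TPM to 7.87 ± 0.66 TPM (n = 3 each, SD). Dnm1, the dynamin of vesicle recycling, fell from a mean of 15.1 ± 0.24 TPM to 7.48 ± 0.40 TPM (n = 3 each, SD), a log2 fold change of −0.92 (limma, adjusted p = 6.3e-05). The vesicle GTPase Rab3a had a log2 fold change of −0.56, which became −0.47 and uncalled after centring on the median. Snap25, a core fusion protein, was listed at 0 in all 6 libraries, and Syp, a standard vesicle marker, did not exceed 0.23 TPM.

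**Figure D3:**
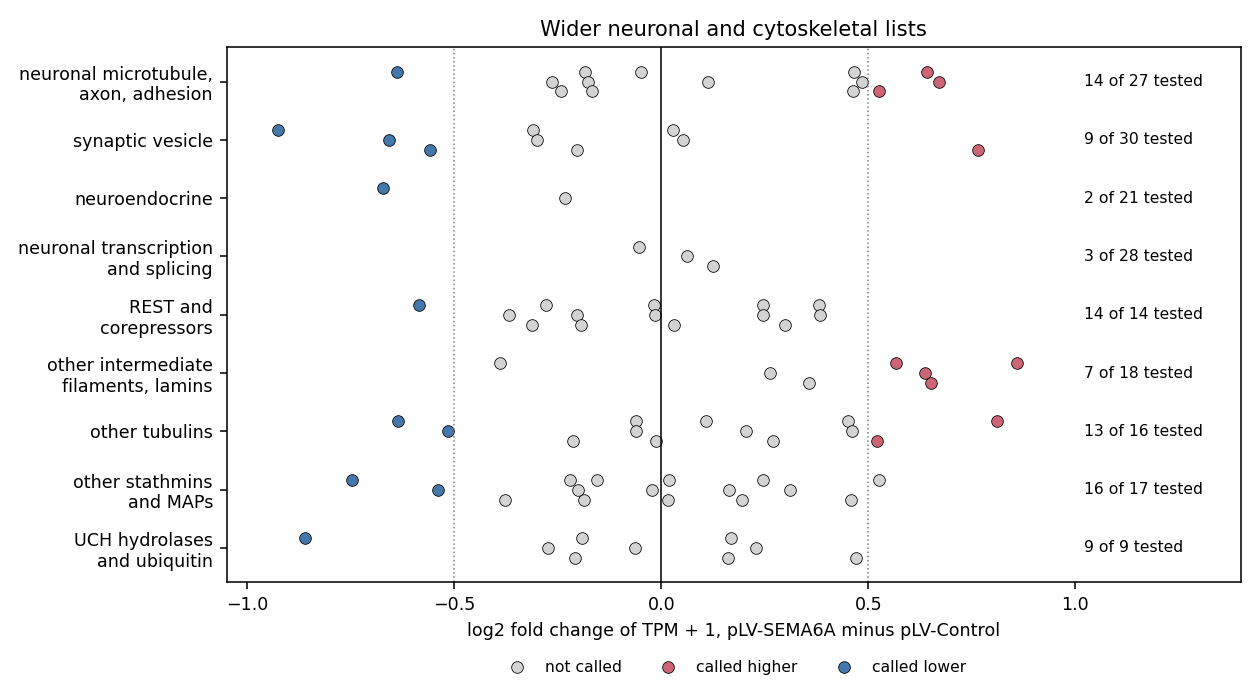
Log2 fold change of TPM + 1, pLV-SEMA6A minus pLV-Control (horizontal axis), of the tested genes of 9 lists (rows), colored by call, with dotted lines at the minimum of 0.5 in each direction. The axonal and synaptic vesicle lists at the top hold called genes on both sides of 0, and in the list of other intermediate filaments and lamins all called genes were higher.

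No tested neuroendocrine gene or neuronal regulator was called higher. Of 21 neuroendocrine genes, 2 were tested and 1, Eno2, was called lower, with a fall from 9.26 ± 0.59 to 5.46 ± 0.73 TPM (SD, n = 3 each). Eno2 encodes the neuronal form of enolase, and like Uchl1 it is a usual marker of neuroendocrine cells. The other tested gene, Cpe, averaged 358 ± 6.10 and 305 ± 7.78 TPM (SD, n = 3 each), above Uchl1 in both groups. Its log2 fold change of −0.23 was below the minimum in size (limma, adjusted p = 0.00074). Chga, the granule protein chromogranin A, was listed at 0 throughout. Of 28 neuronal transcription and splicing factors, 3 were tested and 0 were called by limma, with 0 at an unadjusted p under 0.05. The tested genes were Celf4, Isl1 and Srrm4. Their means were 23.45, 5.50 and 1.55 TPM in pLV-Control and 22.65, 5.85 and 1.79 TPM in pLV-SEMA6A. Elavl4 was listed at 0 in every library, and Rbfox3, the nuclear antigen of mature neurons, did not exceed 0.05 TPM.
Rest, the repressor gene itself, had 10.3, 10.6 and 10.8 TPM in the pLV-Control libraries, against 10.6, 11.2 and 9.58 TPM in those with SEMA6A. The groups overlapped, and the gene was not called (log2 fold change −0.018, adjusted p = 0.853 from limma), with a change of sign to 0.08 after centring on the median. All 14 genes of REST and its corepressors were tested, 0 were called higher and 1 lower. After centring on the median, 0 were called by limma in either direction. Before centring, 10 of the 14 had an unadjusted p under 0.05 from limma, beside 6873 of all 12510 tested genes.
In the promoters, RE1 was searched by its left and right parts, TTCAGCACC and GGACAGCGC, on both strands of the RefSeq windows, which run from 250 bases before to 50 bases after the start. RefSeq windows were matched for 5 members, Uchl1, Tubb3, Map2, Prph and Ina. Neither part occurred in any of the 5, and they occurred in 0.371% and 0.405% of the 32851 windows. The STAT element TTCNNNGAA occurred in 0 of the 5 and in 8.30% of all windows. The GC box GGGCGG occurred in Tubb3, Map2, Prph and Ina and in 35.7% of all windows, and the TATA box TATAAA in Prph alone and in 13.6%. Each motif was counted on its own, whether or not a match overlapped that of another motif, and no match says only that these letters are not in the window.

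The members were set beside other genes of the cytoskeleton, which were not chosen for being absent from neurons. Of 18 other intermediate filament and lamin genes, 7 were tested, 4 were called higher and 0 lower, with a median log2 fold change of 0.57. Vim had a log2 fold change of 0.65 (limma, adjusted p = 2.7e-06). Lmna, which encodes the nuclear lamins A and C, rose from a mean of 298 ± 5.60 TPM to 542 ± 6.75 TPM (n = 3 each, SD), a log2 fold change of 0.86. The other calls were Krt80 and Sync, named after their values were seen, at log2 fold changes of 0.64 and 0.57. Of the 7 tested genes, 6 had a positive log2 fold change and 1, Nes, also named after its values were seen, a negative one. Nes fell from a mean of 33.7 TPM to 25.5 TPM, a log2 fold change of −0.39 (limma, adjusted p = 0.00096) that is below the minimum in size. Krt8, an epithelial keratin, was listed at 0.10 to 0.39 TPM. In pLV-SEMA6A the level of Nefl was 2.43 TPM beside 1407 TPM of Vim.
Of 16 other tubulins, 13 were tested, 2 were called higher and 2 lower, which became 4 higher and 1 lower after centring on the median. Tubb4b, a broadly expressed β-tubulin, rose from a mean of 97.5 ± 1.32 TPM to 172 ± 2.95 TPM (n = 3 each, SD), a log2 fold change of 0.81 (limma, adjusted p = 4.6e-06). The α-tubulin Tuba1c had a log2 fold change of 0.52, which was 0.499 and uncalled without pLV-Control replicate 3. Tuba1b, the most abundant, averaged 680.2 ± 10.4 and 936 ± 13.9 TPM (n = 3 each, SD), and its log2 fold change of 0.46 did not reach the minimum, but was 0.55 and called after centring. Tubb5 averaged 259 ± 1.87 and 256 ± 8.50 TPM (n = 3 each, SD) and was not called (limma, adjusted p = 0.718). The lower calls were Tube1 and Tubg2, the latter named after its values were seen, and Tube1 lost its call without pLV-Control replicate 2 or pLV-SEMA6A replicate 1, with log2 fold changes of −0.44 and −0.48, and after centring, with −0.42. Tubb3 was thus a minor tubulin in both groups. When the minimum of 0.1 TPM was applied to the other tubulins as well, 14 were tested, 2 were called higher and 3 lower. Tubb4a, named after its values were seen, was low like Tubb3 but moved the opposite way. Its pLV-Control libraries held 0.79, 1.28 and 0.86 TPM, while those that overexpress SEMA6A held 0, 0.09 and 0.09 TPM, without overlap.

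**Figure D4:**
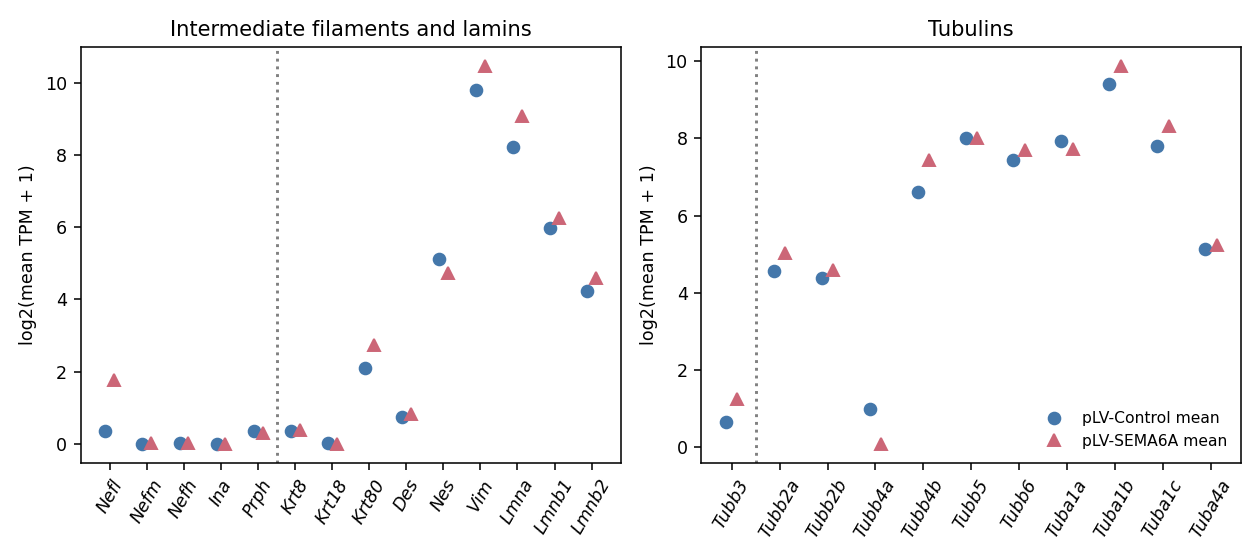
log2(mean TPM + 1) of intermediate filament and lamin genes (left) and tubulins (right) in pLV-Control (circles) and pLV-SEMA6A (triangles), with the neuronal members left of each dotted line. The members lie near the bottom of both panels, below Vim at 1407 TPM and Tuba1b at 936 TPM in pLV-SEMA6A.

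No relative of Stmn2 or of Uchl1 was called higher. Of 17 other stathmins and general microtubule-associated proteins, 16 were tested, 0 were called higher and 2 lower, namely Map1s and, named after its values were seen, Mtus1. Map1s lost its call without pLV-Control replicate 2 or any 1 of the 3 pLV-SEMA6A libraries, and Mtus1 without any library other than pLV-Control replicate 2. Mtus1 reached the minimum for testing only through its pLV-Control values. After centring on the median, 2 genes of the list were called higher and 1 lower. Stmn4, a stathmin of the nervous system named after its values were seen, had a log2 fold change of 0.53 just short of a call (limma, adjusted p = 0.052). It was called higher with the replicate block (0.0311), with a pseudocount of 0.1 (0.0472), after centring (0.032), after rescaling to protein-coding genes (0.0341) and without pLV-SEMA6A replicate 2 (0.0171, all adjusted p from limma). Stmn1, the stathmin of dividing cells, averaged 228 ± 9.30 and 261 ± 2.52 TPM (n = 3 each, SD), a log2 fold change of 0.19 (limma, adjusted p = 0.00381) that is below the minimum of 0.5.
Of 9 ubiquitin genes and hydrolases related to Uchl1, all were tested, 0 were called higher and 1 lower. Uchl3, the closest relative of Uchl1 in this list, averaged 104 ± 4.20 and 117 ± 2.76 TPM (n = 3 each, SD), a log2 fold change of 0.17. Uchl5, a hydrolase of the proteasome, had a log2 fold change of 0.47, and was called without pLV-Control replicate 1 at 0.52 and after centring on the median at 0.56. The difference of Uchl1 from its relatives was not tested.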

How the data were processed

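Poly-A mRNA of 6 SL4 libraries was fragmented, reverse transcribed with random primers and sequenced (Illumina). Values were deposited by the authors as TPM per library with 2 decimals, and the mean TPM of each group, which was not used. The submitters' processing notes name HISAT, Bowtie2, RSEM and mm39, while the annotation is not given in the sources used here. The depth per library cannot be read from TPM, so no detection limit was computed, and a value of 0 is only listed as 0. The criterion for calls, an adjusted p below 0.05 and a log2 fold change beyond 0.5 in size, is the one the authors state for DEGs from limma. They state no such limits for the RNA-seq of these cells, and the test was chosen to suit TPM.

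limma 3.58.1 (R 4.3.3), with a mean-variance trend and a single term for group, was fitted to log2(TPM + 1) of the 12510 genes that averaged 1 TPM or more, and p-values were adjusted by Benjamini-Hochberg over these genes. An exact permutation test, which at 3 against 3 libraries has 0.1 as its smallest p, was not used. Sequences shared between genes were counted as 31-base stretches of GENCODE M21 transcripts (GRCm38), which holds 97.1% of the listed identifiers.

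The members and lists were chosen with earlier results of these data known. The text names the 10 members, the called genes of each list that averaged 5 TPM or more, 9 further genes fixed by name, markers and the 3 genes most like Uchl1. Genes marked as named after their values were seen were added to these. Some called genes of the lists are counted but not reported here by name. Deviations from the group means were not shared between libraries of the same replicate number (mean correlation −0.059, from −0.079 to −0.023, and 0.029 for other numbers), so the numbers were not taken as pairs. The steps were tested on simulated data. The alternatives were another pseudocount, other filters, centring, rescaling to protein-coding genes, other minimum fold changes, the replicate block and leaving out each library.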

Additional observations from a re-analysis of the deposited data

How the results depend on the processing

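The count of called genes among the 8 added members was 0 as reported, and 1 (Tubb3) with a minimum mean of 0.1 TPM, with no filter on low values and with TPM rescaled to protein-coding genes, which lifted Tubb3 over the minimum through its pLV-SEMA6A values. It ranged from 0 to 1 over the fits that left out a library, and was 1 in every such fit at a minimum of 0.1 TPM and with a minimum and pseudocount of 0.1, alternatives chosen after seeing the data. Map2 reversed to −0.037 and −0.029 without pLV-Control replicates 2 and 3, and was 0.34 without replicate 1. The log2 fold change of Uchl1 ranged from 1.22 to 1.24 and that of Nefl from 1.36 to 1.52 without each library, and that of Uchl1 was 1.33 after centring. With the replicate number as a block, fold changes are unchanged by construction, the count of members stayed at 0, and 1924 genes were called, of which 1875 were also called without the block.

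Over all genes, 5959 were called with no minimum fold change and 385 with a minimum of 1, and between 1900 and 1975 without each library. With no minimum fold change, 5959 of the 12510 tested genes were called. Beside this stood 8 of 14 tested neuronal microtubule, axon and adhesion genes, 4 of 9 synaptic vesicle genes and 2 of 2 neuroendocrine genes. Of the neuronal transcription and splicing factors, 0 of 3 were called. The counts were 9 of 14 for REST and its corepressors, 7 of 7 for other filaments and lamins and 8 of 13 for other tubulins. They were 9 of 16 for other stathmins and 8 of 9 for ubiquitin genes. With a minimum of 1, 0 genes were called in each of these lists. After centring on the median, the counts were 7 for neuronal microtubule, axon and adhesion genes, 0 for REST and its corepressors and 2 for ubiquitin genes. At a minimum of 0.1 TPM, 2121 of 17532 tested genes were called. Beside this stood 4 of 20 neuronal microtubule, axon and adhesion genes and 4 of 14 synaptic vesicle genes. For neuroendocrine genes it was 1 of 5, and for neuronal transcription and splicing factors 0 of 10. With no filter the count for other stathmins was 1. Without each library in turn, the counts ranged from 3 to 6 for neuronal microtubule, axon and adhesion genes, from 3 to 5 for other tubulins, from 0 to 2 for other stathmins and from 1 to 2 for ubiquitin genes, and stayed at 4 for synaptic vesicle genes, 1 for neuroendocrine genes, 1 for REST and 4 for other filaments and lamins. Below 1 TPM the unknown depth limits what the values of 7 members can show.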
